A study of Mus musculus with 6 samples.

Results

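The 10 integrin subunit genes described here are Itga1, Itga3, Itga5, Itga6, Itga10, Itga11, Itgav, Itgb1, Itgb5 and Itgb8, alpha and beta chains listed for chondrocytes. They were taken by symbol from a table of read counts for 55401 Ensembl genes, and 10 of 10 were found and passed the filter on low counts. RNA came from articular cartilage of the knee of mice aged 10 weeks. There were 3 libraries labelled wild type (WT) and 3 labelled adseverin knockout (cKO). Mice of both groups, controls included, had received tamoxifen from 8 weeks of age, 1.5 mg per 10 g body weight on each of 5 days. Adseverin, encoded by Scin, severs and caps actin filaments. No label or processing note used here gives the Cre driver, the deleted part of Scin, the strain, the sex of the mice or the number of animals pooled per library. The labels do not say that libraries of a group came from separate mice, and the spread behind the p-values may therefore be partly technical.

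Integrins are surface receptors built of 1 alpha and 1 beta chain, and they tie the extracellular matrix to the actin cytoskeleton through talin, kindlin and their partners. The beta 1 chain pairs with the collagen receptors alpha 1, alpha 10 and alpha 11, with the fibronectin receptor alpha 5 and with the laminin receptors alpha 3 and alpha 6. The alpha v chain pairs with several beta chains, among them beta 1, beta 5 and beta 8. In cartilage, alpha 10 beta 1 is known as a receptor for type II collagen, and loss of beta 1 from chondrocytes is known to disorder the growth plate.

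Read totals ran from 22664828 to 31014996 per library. All CPM values are read counts scaled to library size and normalised by TMM (trimmed mean of M values), which corrects for differences in composition. Scin stood at 186, 185 and 219 CPM in WT 1 to 3 and at 39.1, 29.9 and 29.4 CPM in cKO 1 to 3, so each library matched its label. The chondrocyte markers fixed for the check, 12 of 12 detected, summed to between 48410 and 51374 CPM in WT and between 52836 and 59098 CPM in cKO. In 11 of the 12 the log2 fold change was above 0 (median 0.23). The exception was Acan, which encodes the cartilage proteoglycan aggrecan and is named after its values were seen. It stood at 1273, 1322 and 1440 CPM in WT and at 708, 949 and 989 CPM in cKO, without overlap (log2 fold change -0.61 ± 0.13, edgeR adjusted p = 0.535, DESeq2 adjusted p = 0.00200, limma-voom adjusted p = 0.492). Markers of other cells were present too. Osteoblast and osteocyte markers, among them Ibsp, summed to between 33769 and 40408 CPM in WT and between 39437 and 40974 CPM in cKO. This was the largest sum among the lists of other cells. In 9 of the 11 osteoblast and osteocyte markers the log2 fold change was above 0 (median 0.26). Without cKO 3 this held for 7 of the 11, with a median of 0.05. Fibroblast markers, of which Col1a1 is also an osteoblast marker, summed to between 21344 and 27373 CPM in WT and between 19957 and 26336 CPM in cKO, and macrophage markers to between 851 and 1078 CPM in WT and between 675 and 833 CPM in cKO. WT 2 stood apart in skeletal muscle markers, at 1319 CPM against 24.2 to 223 in the other libraries, and in adipocyte markers, at 171 CPM against 21.8 to 87.1. cKO 3 had the highest sum of neutrophil markers, 2800 CPM against 1129 to 1990. Values without WT 2, cKO 3 or both stand beside the subunits they move most. The samples are tissue RNA, so for each gene below fewer cells of a type and less RNA per cell cannot be told apart.

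Promoters of 3 members are shown first, as the sequence at the start of the genes that the results return to: Itga10, the collagen receptor chain tied to cartilage, and Itgb1 and Itgb5, the beta chains with the highest levels per length. Each window is from RefSeq (GRCm38.p6), holds 250 bases before to 50 bases after the start of the gene, and is written 5′ to 3′ on the strand of the gene. Capitals mark the GC box (GGGCGG on either strand) and the binding motif of the TEAD factors (CATTCC on either strand).
Itga10 (chr3:96645334-96645633, plus strand): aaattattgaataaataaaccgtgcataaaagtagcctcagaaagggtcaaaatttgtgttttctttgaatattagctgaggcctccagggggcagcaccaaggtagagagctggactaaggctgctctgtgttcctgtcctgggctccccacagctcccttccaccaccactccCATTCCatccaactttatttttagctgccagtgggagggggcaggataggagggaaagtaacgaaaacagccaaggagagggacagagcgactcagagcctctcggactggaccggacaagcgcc
Itgb1 (chr8:128685404-128685703, plus strand): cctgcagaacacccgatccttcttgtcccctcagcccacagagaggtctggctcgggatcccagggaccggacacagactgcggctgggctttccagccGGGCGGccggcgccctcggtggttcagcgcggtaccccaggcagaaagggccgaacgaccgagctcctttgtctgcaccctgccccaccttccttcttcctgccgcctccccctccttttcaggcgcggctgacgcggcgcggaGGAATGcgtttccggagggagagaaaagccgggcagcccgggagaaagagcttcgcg
Itgb5 (chr16:33829415-33829714, plus strand): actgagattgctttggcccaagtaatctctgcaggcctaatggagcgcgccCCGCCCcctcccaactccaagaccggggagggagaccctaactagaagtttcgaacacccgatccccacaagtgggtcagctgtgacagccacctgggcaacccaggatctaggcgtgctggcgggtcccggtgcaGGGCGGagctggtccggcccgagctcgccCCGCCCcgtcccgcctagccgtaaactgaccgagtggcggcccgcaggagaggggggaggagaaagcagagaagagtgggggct

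The Itgb5 window held 3 GC boxes, the Itgb1 window 1 and the Itga10 window 0, and 35.7% of all 32851 promoter windows of this length held at least 1. The TEAD motif stood once in the Itga10 window and once in the Itgb1 window, and in 14.7% of all windows. The Itga10 window had a GC content of 51%, against 67.3% for Itgb1, 65.7% for Itgb5 and a median of 52.7% over all windows. The CArG box, the site of the actin-regulated factor SRF, was in 0 of these 3 windows and in 1.63% of all windows. These matches describe the letters of the windows and are not evidence of binding.

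Per length, the 10 genes ranged from rank 145 to rank 14649 of the 16248 tested genes with an annotated length, counted from the most abundant. Levels are given as CPM per kilobase of the union of annotated exons, as mean ± SD over the 6 libraries. Itgb5 was the most abundant at 218 ± 17.8 CPM per kilobase, followed by Itgb1 at 126 ± 6.48 and Itga5 at 50.7 ± 5.68. Itgb1 ranked 312 and Itga5 ranked 879. Itgav followed at 12.3 ± 1.42, Itga11 at 7.92 ± 1.83, Itga6 at 7.57 ± 0.893 and Itga10 at 4.81 ± 0.966 CPM per kilobase. Itga3 at 2.76 ± 0.592, Itga1 at 1.90 ± 0.141 and Itgb8 at 0.315 ± 0.222 CPM per kilobase closed the order.

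From Itgb5 down to Itgav, each gene was above the next in 6 of 6 libraries without overlap. Itga11 and Itga6 could not be ordered, with Itga11 above in 4 of 6 libraries. Itga3 was above Itga1 in 6 of 6 libraries, although their ranges overlapped. The lower part of the order depended on the length used, since the exons of Itga1 add up to 18599 bases, of which 3537 code for protein. Per kilobase of coding sequence Itga6 stood at 20.2 ± 2.39 CPM, above Itga11 at 11.4 ± 2.63 and Itga1 at 9.98 ± 0.743, and Itga10 and Itga3 followed at 7.12 ± 1.43 and 4.56 ± 0.978. Itgb5, Itgb1, Itga5 and Itgav kept the first 4 places on that scale, and Itgb8 the last.

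**Figure D1:**
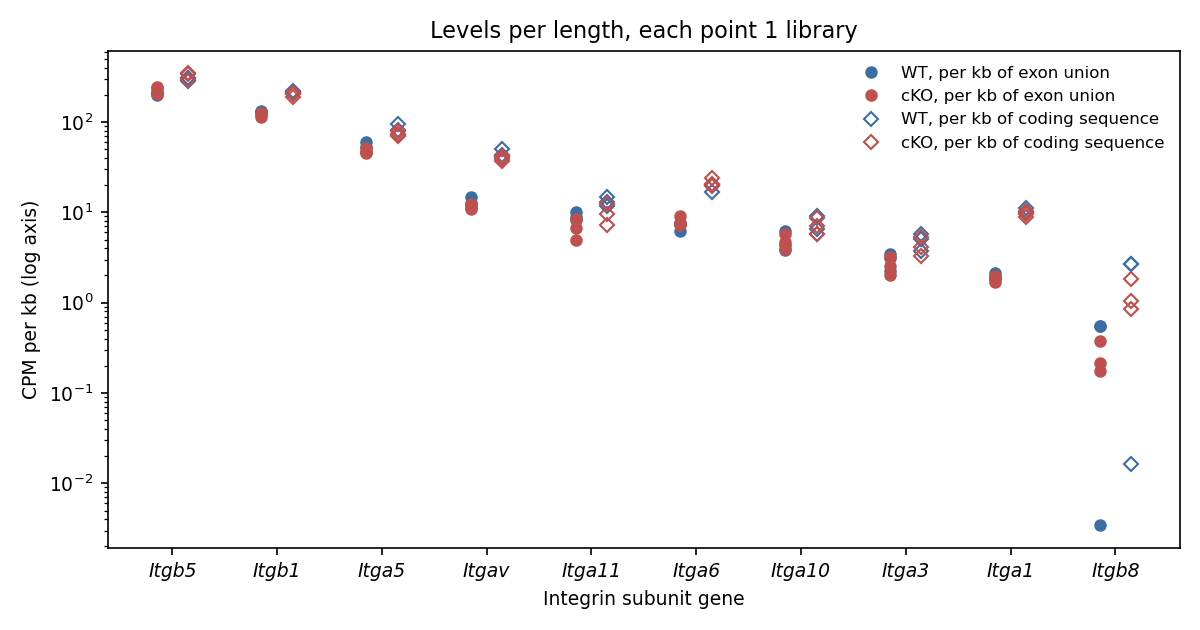
Level of each integrin subunit gene as CPM per kilobase (log axis) in each library, per length of all exons (circles) and of coding sequence (diamonds), WT in blue and cKO in red. Itgb5 and Itgb1 lie above the other genes on both scales, Itga1 moves most between the scales, and 1 WT point of Itgb8 lies far below the rest.

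Adseverin deletion was compared with WT to ask whether transcripts of the integrin receptors differed. Of the 10 genes, 0 passed a Benjamini-Hochberg adjusted p of 0.05 in the edgeR quasi-likelihood test, where 0.00615% of all tested genes passed, and 0 had an unadjusted p under 0.05, where 6.5% of tested genes did. DESeq2 passed 0 of the 10 as well, against 0.54% of the genes it tested, and 1 of them, Itga11, had an unadjusted p under 0.05, against 4.84% of genes. With limma-voom the counts were 0 and 1, again Itga11, against 0.00615% and 7.17% of genes. In 7 of the 10 genes the log2 fold change, cKO minus WT, was below 0, and its median was -0.14, beside 49.4% of all tested genes below 0 and a median of 0.004 over them. The CPM values of the groups did not overlap for 1 of the 10 genes, Itgb1, against 12.3% of all tested genes.

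The collagen-binding alpha chains come first by role. Itga11 (ENSMUSG00000032243, chromosome 9, 62677826 to 62783982) encodes a receptor for fibrillar collagens that is known from fibroblasts and other mesenchymal cells. It stood at 42.1, 52.4 and 45.8 CPM in WT 1 to 3 and at 43.6, 34.5 and 25.5 CPM in cKO 1 to 3. cKO 1 lay inside the WT range, and cKO 2 and cKO 3 lay below every WT library. Its log2 fold change of -0.44 ± 0.19 (SE) had the smallest p of the 10 genes (edgeR adjusted p = 0.777, unadjusted p = 0.0533), with a 95% interval from -0.97 to 0.10. Without cKO 1 the log2 fold change was -0.64, at an unadjusted edgeR p of 0.00907 and an adjusted p of 0.565. Without cKO 3 it was -0.26, so these libraries set its size. Without WT 2, the highest library, it was -0.35, and without WT 2 and cKO 3 together it was -0.17. In the same comparison 10 of 11 fibroblast markers had a log2 fold change below 0 (median -0.33). Without WT 2 this held for 8 of 11, with a median of -0.06, and the part of this in the Itga11 values was not tested.

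Itga10 (ENSMUSG00000090210, chromosome 3, 96645584 to 96664519), the type II collagen receptor chain, stood at 20.1, 22.8 and 31.8 CPM in WT and at 24.6, 20.1 and 30.1 CPM in cKO. The groups covered nearly the same range, with WT 3 and cKO 3 the highest of each. Between the groups the log2 fold change was 0.00 ± 0.22, with a 95% interval from -0.60 to 0.60, and it took either sign with single libraries left out (-0.16 to 0.22). Of its exon bases, 33.5% are also annotated to Gm42957, a gene on the same strand with 35 to 84 reads per library. No source used here says how reads in those bases were counted, so the level of Itga10 is uncertain. With the shared bases left out of the length, Itga10 stood at 7.23 ± 1.45 CPM per kilobase in place of 4.81. It then lay above Itga11 and above Itga6 in 2 of 6 libraries each and could not be ordered against them. Per length of all exons Itga6 was above Itga10 in 6 of 6 libraries, while Itga11 over Itga10 was already 0.857 in cKO 3.

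Itga1 (ENSMUSG00000042284, chromosome 13, 114953096 to 115101964), a collagen receptor chain that also binds basement membrane collagen, varied little between libraries. It stood at 35.8, 34.9 and 39.4 CPM in WT and at 36.3, 31.4 and 34.0 CPM in cKO. The groups overlapped, and the log2 fold change of -0.11 ± 0.12 had a 95% interval from -0.44 to 0.22. Single libraries left out moved it between -0.16 and -0.06.

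**Figure D2:**
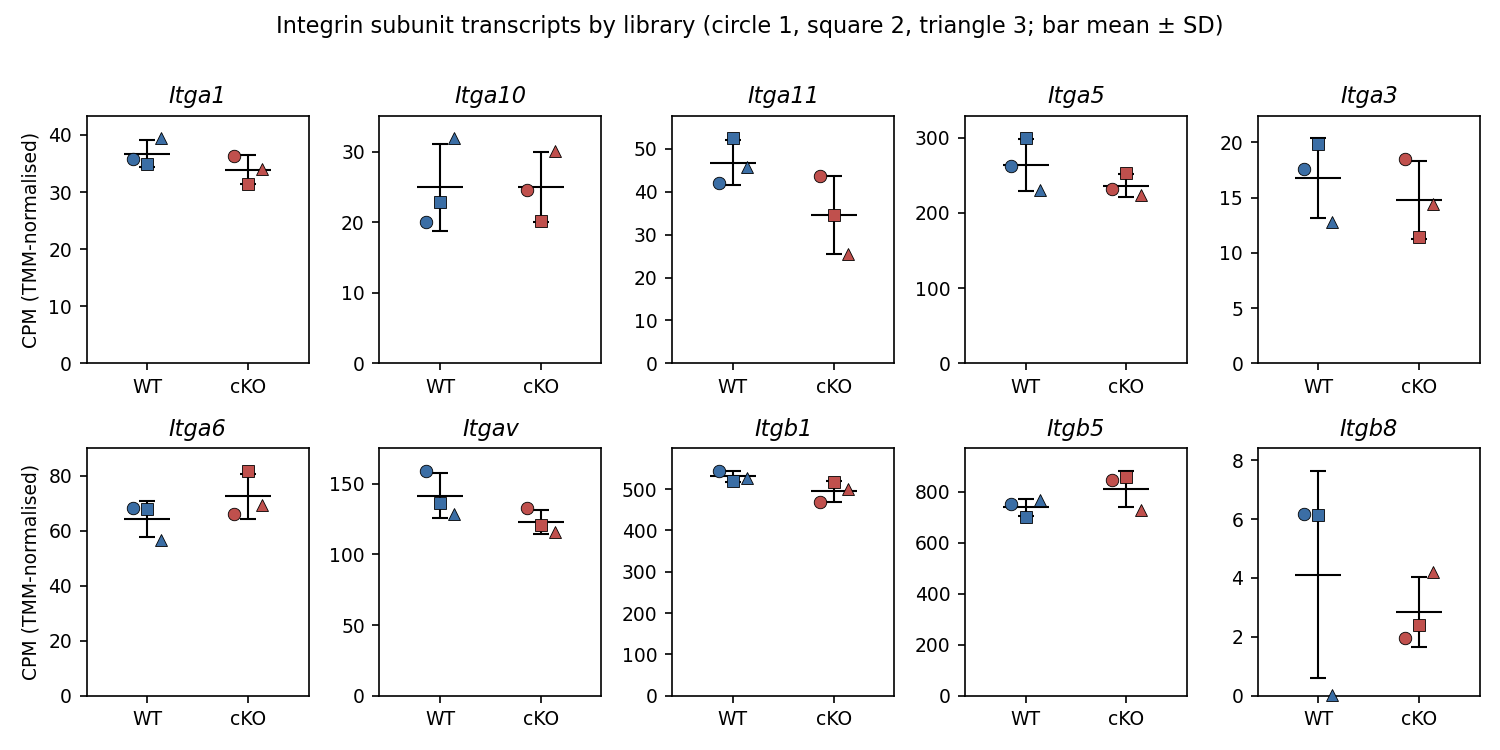
CPM of the 10 integrin subunit genes in each library, WT in blue and cKO in red, with the mean and SD of each group (n = 3) and a separate axis from 0 for each gene. The groups overlap for every gene except Itgb1, and the WT 3 triangle of Itgb8 lies on the zero line.

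The fibronectin receptor chain Itga5 (ENSMUSG00000000555, chromosome 15, 103344286 to 103366763) was the most abundant alpha chain per length. It stood at 262, 299 and 231 CPM in WT and at 232, 253 and 224 CPM in cKO. WT 2 was the highest of the 6, and WT 3 lay among the cKO libraries. The log2 fold change was -0.16 ± 0.11 (edgeR adjusted p = 0.868) and its 95% interval ran from -0.46 to 0.14. Left out singly, the libraries gave values from -0.25 (without WT 3) to -0.07 (without WT 2), and without WT 2 and cKO 3 together the value was -0.03.

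The laminin receptor chains gave values on either side of 0. Itga6 (ENSMUSG00000027111, chromosome 2, 71745616 to 71858416) stood at 68.4, 67.8 and 56.6 CPM in WT and at 66.1, 81.8 and 69.4 CPM in cKO. WT 3 was the lowest and cKO 2 the highest, and the other 4 libraries lay close together. For Itga6 the log2 fold change was 0.17 ± 0.12, with a 95% interval from -0.16 to 0.51. It was 0.08 without cKO 2 and 0.09 without WT 3. Itga3 (ENSMUSG00000001507, chromosome 11, 95044474 to 95076801) stood at 17.6, 19.8 and 12.8 CPM in WT and at 18.5, 11.4 and 14.4 CPM in cKO. Both groups of Itga3 spread over nearly the same range, and the log2 fold change was -0.18 ± 0.24. It was -0.02 without cKO 2, -0.05 without WT 2, -0.34 without WT 3 and -0.37 without cKO 1.

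Itgav (ENSMUSG00000027087, chromosome 2, 83724397 to 83806916) encodes the alpha v chain, which binds vitronectin, fibronectin and latent TGF-beta with different beta partners. It stood at 159, 136 and 129 CPM in WT and at 133, 121 and 116 CPM in cKO. cKO 1 lay above WT 3, and cKO 2 and cKO 3 lay below every WT library. The log2 fold change was -0.20 ± 0.10 (edgeR adjusted p = 0.812), with a 95% interval from -0.49 to 0.09. Without WT 1 it was -0.11. Of its exon bases 5.90% overlap an antisense transcript, Gm13684, with 15 to 52 reads per library.

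Itgb1 (ENSMUSG00000025809, chromosome 8, 128685654 to 128733200), the shared partner of 7 of the alpha chains here, stood at 544, 520.0 and 527 CPM in WT and at 467, 517 and 499 CPM in cKO. The 3 cKO libraries lay below the 3 WT libraries, with 2.58 CPM between the nearest pair, WT 2 and cKO 2. The log2 fold change was -0.10 ± 0.07 and did not pass the test (edgeR adjusted p = 0.881). Its 95% interval from -0.31 to 0.10 bounds the difference more narrowly than for any other member. Without cKO 1 the value was -0.06.

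Itgb5 (ENSMUSG00000022817, chromosome 16, 33829665 to 33949338), whose product pairs with alpha v as a vitronectin receptor, stood at 751, 701 and 765 CPM in WT and at 847, 856 and 729 CPM in cKO. cKO 1 and cKO 2 lay above every WT library, and cKO 3 lay among them. The log2 fold change was 0.13 ± 0.09 (edgeR adjusted p = 0.861), with a 95% interval from -0.11 to 0.37. Without cKO 3 it was 0.21, at an unadjusted edgeR p of 0.0309 and an adjusted p of 0.803.

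Itgb8 (ENSMUSG00000025321, chromosome 12, 119158022 to 119238802), the partner with which alpha v is known to activate latent TGF-beta, was the least abundant member and the most uneven. It had 173, 140 and 1 reads in WT 1 to 3 and 44, 73 and 100 reads in cKO 1 to 3, which are 6.16, 6.14 and 0.038 CPM in WT and 1.95, 2.40 and 4.19 CPM in cKO. WT 1 and WT 2 lay above every cKO library and WT 3 lay below every one. The single read in WT 3 has an exact Poisson 95% interval of 0.0253 to 5.57 reads, which covers counting error only. With all libraries its log2 fold change was -0.53 ± 1.04 in edgeR and 1.12 in limma-voom. It was -0.11 without WT 1 and -0.13 without WT 2. Without WT 3 it was -1.11 ± 0.40 at an unadjusted edgeR p of 0.0259 and an adjusted p of 0.784. Of 16260 tested genes 5, or 0.0308%, had 1 library at 0 or 1 read beside 5 libraries at 40 reads or more. These limits lie close to the counts of Itgb8 itself, so the share describes this pattern and does not measure how rare such drops are. WT 3 was the low library in 4 of these 5 genes, namely Cyp2e1, Osbp2, Hist1h2al and Itgb8, and cKO 3 in the other, Zfp595, all named after their values were seen.

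**Figure D3:**
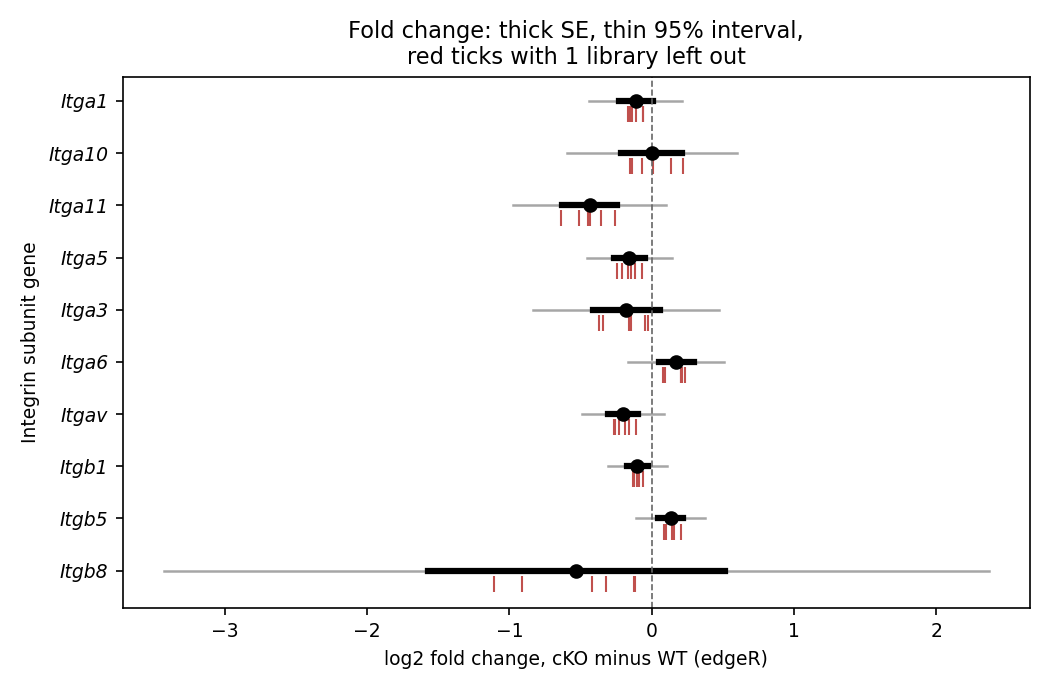
Log2 fold change, cKO minus WT, of the 10 integrin subunit genes from edgeR, with the SE (thick line), the 95% interval (thin line) and the values with each library left out in turn (red ticks). All 10 intervals include 0, and the interval of Itgb8 is the widest.

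Integrin chains act in pairs, so the balance between chains was compared per length of exon within each library. Among the collagen-binding alpha chains (Itga1, Itga2, Itga10 and Itga11), Itga11 made up 56.3%, 61.3% and 51.1% of the summed level in WT and 53.7%, 52.9% and 38.2% in cKO. The means differed by -7.98 percentage points (exact permutation test, two-sided, p = 0.30). Itga10 made up 26.6%, 26.4% and 35.2% in WT and 29.95%, 30.5% and 44.5% in cKO, a difference of 5.61 percentage points (exact permutation test, two-sided, p = 0.50). cKO 3 had the lowest Itga11 share and the highest Itga10 share of all libraries, and without it the differences were -2.94 and 0.851 percentage points. With exon bases shared with other genes left out of the lengths they were -7.81 and 6.08 percentage points. Itga1 held 12.2% ± 0.971 in WT and 13.2% ± 0.841 in cKO, and Itga2, which is no member, 2.16% ± 1.51 and 3.52% ± 0.387 (SD, n = 3). The shares depended on the length used. Per kilobase of coding sequence Itga1 held 33.2% ± 1.86 in WT and 35.1% ± 1.65 in cKO. On that scale Itga11 held 42.0% ± 4.38 and 35.2% ± 6.85, and Itga10 22.6% ± 3.89 and 26.1% ± 5.73.

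Over the 7 alpha chains of the list, Itga5 held 57.6% ± 2.40 of the summed level in WT and 57.5% ± 2.27 in cKO (SD, n = 3). Itga6 held 8.18%, 7.46% and 7.43% in WT and 8.61%, 10.5% and 9.72% in cKO, and these groups did not overlap. The 7 alpha chains together came to 0.713 ± 0.0704 of the Itgb1 level in WT and 0.689 ± 0.0490 in cKO (SD, n = 3).

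The beta chains gave a ratio that separated the groups by a small margin. Itgb5 over Itgb1, per length of exon, was 1.58, 1.55 and 1.67 in WT and 2.08, 1.90 and 1.68 in cKO. WT 3 and cKO 3 lay nearest to each other, and the difference of the means was 0.286, or 0.188 without cKO 1. Itgb5 over Itgav was 14.3, 15.5 and 18.0 in WT and 19.3, 21.5 and 19.0 in cKO, again without overlap. Per kilobase of coding sequence Itgb5 over Itgav was 5.96, 6.50 and 7.51 in WT and 8.08, 8.98 and 7.95 in cKO. Itgb5 over Itgb1 was then 1.39 ± 0.0532 in WT and 1.63 ± 0.175 in cKO (SD, n = 3). For the Itgb5 ratios and the Itga6 share per length of exon the exact permutation test gave p = 0.10, the smallest that 3 against 3 libraries allow. The adjusted p was 0.40 over the 20 shares and ratios computed per length of exon. Apart from the Itga10 and Itga11 shares, they were chosen after values of these genes were known.

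**Figure D4:**
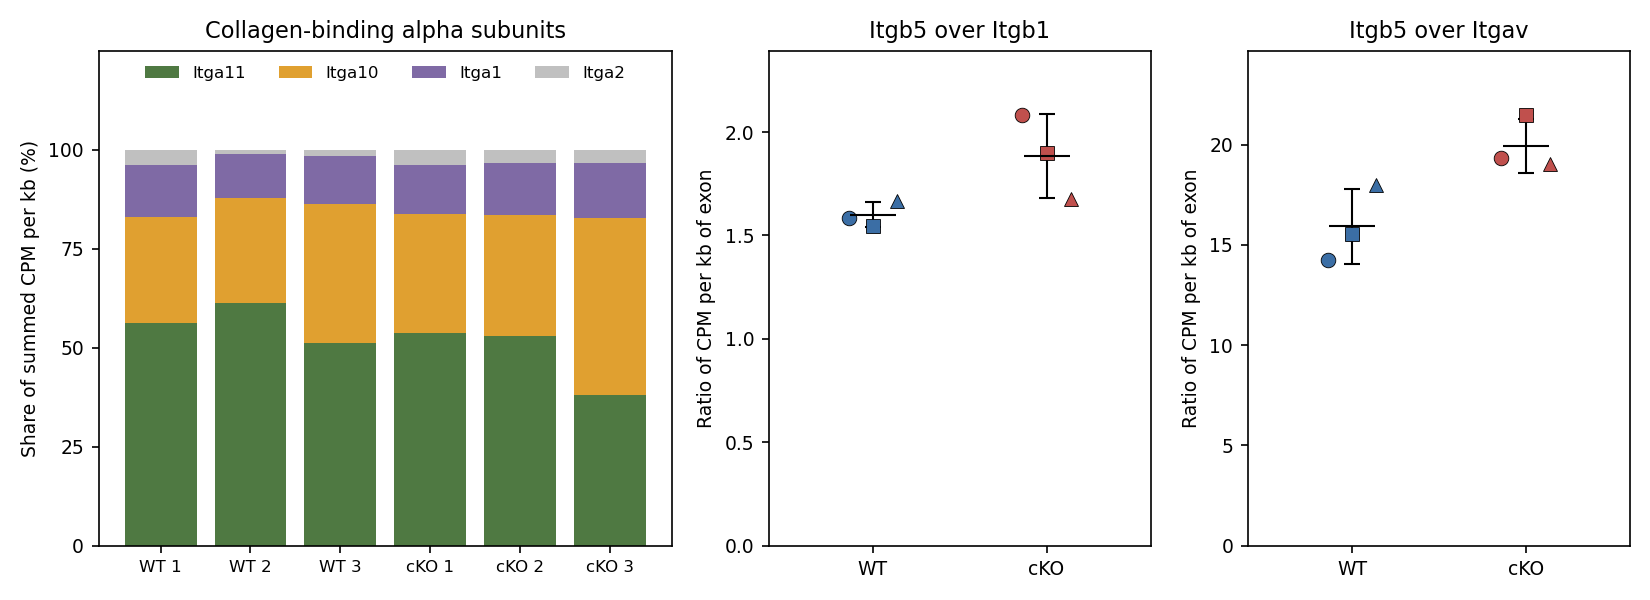
Left, shares (%) of the 4 collagen-binding alpha chains in their summed CPM per kilobase of exon, stacked for each library. Middle and right, the ratio of Itgb5 to Itgb1 and of Itgb5 to Itgav per length in WT (blue) and cKO (red), with mean and SD (n = 3). cKO 3 has the smallest Itga11 share, and the Itgb5 ratios of the groups do not overlap.

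The other integrin subunits were looked at from a list of 16 genes. Of these, 13 were tested and 0 passed in edgeR, DESeq2 or limma-voom, with 1, 2 and 2 genes at an unadjusted p under 0.05, which 6.5%, 4.84% and 7.17% of all genes had in these tools. In edgeR 8 of the 13 had a log2 fold change below 0, with a median of -0.25. Itga8, a partner of beta 1 that binds nephronectin, stood at 2.53, 1.97 and 0.760 CPM in WT and at 6.73, 3.88 and 3.47 CPM in cKO, a log2 fold change of 1.42 ± 0.50 (edgeR adjusted p = 0.700). The cKO libraries of Itga8 lay above the WT libraries without overlap, at a level below most members. Itgax, a leukocyte chain, stood at 3.42, 1.76 and 1.86 CPM in WT and at 0.443, 0.230 and 1.72 CPM in cKO, a log2 fold change of -1.56 ± 0.76. The leukocyte chains Itgb2 and Itgb7 were the most abundant of this list per length, at 51.0 ± 15.3 and 16.8 ± 1.17 CPM in WT and 45.3 ± 3.87 and 13.5 ± 5.28 CPM in cKO (SD, n = 3). Macrophage markers lay below 0 in 9 of 10 genes (median -0.28, or -0.14 without WT 1 and -0.12 without cKO 1) in the same comparison, and their part in the values of leukocyte chains was not tested.

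Genes that act on integrins from inside the cell were read from 2 lists. Of 13 tested activators and inhibitors, 0 passed in edgeR, DESeq2 or limma-voom, with 2, 3 and 3 at an unadjusted p under 0.05 (6.5%, 4.84% and 7.17% of all genes), and 9 lay below 0 in edgeR (median -0.12). Without WT 2 only 6 of the 13 lay below 0, and the median was 0.03. Dab2, an endocytic adaptor that binds integrin beta tails, stood at 572, 568 and 570.3 CPM in WT and at 549, 393 and 344 CPM in cKO. Its 3 WT libraries lay within 3.88 CPM of each other, and all 3 cKO libraries lay below them (log2 fold change -0.41 ± 0.16, edgeR adjusted p = 0.709). Itgb1bp1, the beta 1 tail inhibitor ICAP-1, stood at 39.9, 50.2 and 40.4 CPM in WT and at 37.4, 30.1 and 36.3 CPM in cKO, a log2 fold change of -0.33 ± 0.14. Rap1b, a small GTPase that activates integrins through talin, was the most abundant of this list per length and had a log2 fold change of -0.14 ± 0.10.

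Of 28 tested adaptors and kinases of integrin adhesions, 0 passed in any of the 3 tools, with 3 at an unadjusted p under 0.05 in each (6.5%, 4.84% and 7.17% of all genes), and 16 lay below 0 in edgeR (median -0.08). Pxn, which encodes the adhesion scaffold paxillin, stood at 39.8, 31.2 and 36.7 CPM in WT and at 24.1, 24.8 and 26.5 CPM in cKO. The groups did not overlap (log2 fold change -0.52 ± 0.13, edgeR adjusted p = 0.605, DESeq2 adjusted p = 0.0975). Tns2, a tensin that binds beta tails, stood at 126, 123 and 133 CPM in WT and at 147, 149 and 176 CPM in cKO, also without overlap (log2 fold change 0.31 ± 0.09). The most abundant per length were Actn4, an actin crosslinker, at -0.01 ± 0.07, and Csrp1, a LIM protein, at -0.19 ± 0.15 on the log2 scale.

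The ligands lay outside the cell and were the list with the highest levels. Of 37 tested, 0 passed in edgeR or limma-voom (smallest adjusted p 0.533 and 0.482), while DESeq2, which passed 0.54% of all genes, passed 1 as higher, Mfge8, and 2 as lower, Lamb1 and Fn1. An unadjusted p under 0.05 was reached by 8 genes in edgeR, 7 in DESeq2 and 8 in limma-voom, beside 6.5%, 4.84% and 7.17% of all genes. Mfge8, which carries an RGD motif bound by alpha v integrins, stood at 2856, 3257 and 3561 CPM in WT and at 4301, 5033 and 4362 CPM in cKO, a log2 fold change of 0.50 ± 0.10 (edgeR adjusted p = 0.533, DESeq2 adjusted p = 0.00525). Lamb1, the laminin beta 1 chain, stood at 16.3, 14.5 and 15.7 CPM in WT and at 8.81, 5.53 and 7.37 CPM in cKO, a log2 fold change of -1.10 ± 0.22 (edgeR adjusted p = 0.533, DESeq2 adjusted p = 0.00487). Fn1, which encodes fibronectin and was named after its values were seen, stood at 4349, 4633 and 4742 CPM in WT and at 3804, 3765 and 3358 CPM in cKO, a log2 fold change of -0.33 ± 0.08 (edgeR adjusted p = 0.596, DESeq2 adjusted p = 0.0304). These 3 genes were the ones that passed in DESeq2, and their groups did not overlap. The groups did not overlap in 8 of the 37 tested ligands, 4 lower and 4 higher, against 12.3% of all tested genes. The chains that bind fibronectin and alpha v ligands, Itga5 and Itgav, stood at -0.16 and -0.20 on the log2 scale. The laminin receptor chains Itga6 and Itga3 stood at 0.17 and -0.18. The most abundant ligands per length were Chad (chondroadherin), at 0.09 ± 0.06, and Ibsp (bone sialoprotein), at 0.19 ± 0.09 on the log2 scale. Chad is also on the list of chondrocyte markers, and Ibsp on that of osteoblast and osteocyte markers. The median of the ligand list was -0.02. Fibroblast markers, some of them ligands themselves, had a median of -0.33, or -0.06 without WT 2.

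Latent TGF-beta is held in the matrix and at the cell surface and is released by alpha v integrins. Of 9 genes for TGF-beta and its binding proteins, 0 passed in edgeR, DESeq2 or limma-voom, with 1 at an unadjusted p under 0.05 in each (6.5%, 4.84% and 7.17% of all genes), and 8 lay below 0 in edgeR (median -0.11). Without WT 2 only 5 of the 9 lay below 0, with a median of -0.05. Lrrc32, the surface anchor GARP, stood at 9.82, 8.25 and 14.5 CPM in WT and at 4.25, 3.69 and 6.99 CPM in cKO without overlap (log2 fold change -1.13 ± 0.33, edgeR adjusted p = 0.658). Nrros, an anchor known from macrophages, had a log2 fold change of -0.41 ± 0.20. Tgfb3 and the matrix anchor Ltbp3, the most abundant per length, stood at -0.06 ± 0.12 and -0.03 ± 0.09.

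Surface proteins that associate with integrins numbered 15 tested genes, of which 0 passed in edgeR or limma-voom (smallest adjusted p 0.596 and 0.505) and 1, Lgals1, passed as lower in DESeq2, beside 0.54% of all genes. Lgals1, which encodes galectin-1, stood at 202, 207 and 231 CPM in WT and at 143, 166 and 170.5 CPM in cKO, without overlap (log2 fold change -0.42 ± 0.10, edgeR adjusted p = 0.596, DESeq2 adjusted p = 0.0324). The tetraspanin genes Cd82 and Cd9 were at 0.15 ± 0.08 and 0.02 ± 0.09, and Lgals3 was at -0.03 ± 0.08 on the log2 scale. Of 10 tested genes of integrin trafficking, 0 passed in edgeR, DESeq2 or limma-voom, with 2, 3 and 2 at an unadjusted p under 0.05, beside 6.5%, 4.84% and 7.17% of all genes. Rab4a, of the short recycling loop, had a log2 fold change of 0.36 ± 0.14 and Arf6, a GTPase of recycling to the membrane, -0.21 ± 0.10.

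**Figure D5:**
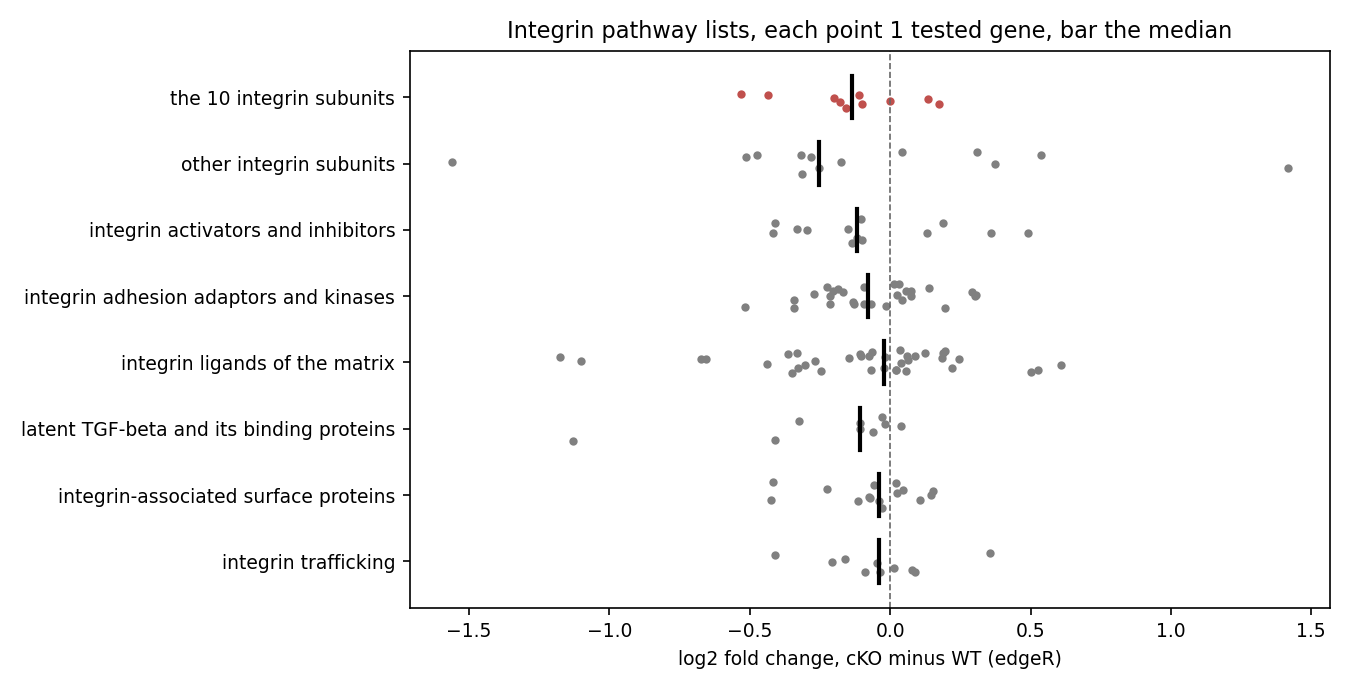
Log2 fold change, cKO minus WT, of each tested gene (point) in the 8 integrin pathway lists, with the median of each list (bar); the 10 integrin subunits are in red. The subunits lie between -0.53 and 0.17, and the medians of the lists lie between -0.25 and -0.02.

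The genes whose pattern over the 6 libraries was most like that of a member were found among 8846 genes with a mean of at least 10 CPM. The measure was the root mean square difference of log2 CPM, each gene centred on its own mean. For Itgb1 they were Ndufa9, a complex I subunit, at 0.0205, Snap47 at 0.0273 and Kdelr2, a receptor that returns proteins to the endoplasmic reticulum, at 0.0280. For Itga10 they were Phf2 at 0.0746, Mdn1 at 0.0786 and Kdm5d, a Y-linked demethylase gene, at 0.0863. For Itga11 they were Tox4 at 0.0971, Abhd17b at 0.107 and Prmt1, an arginine methyltransferase, at 0.108. The SD of the member's own log2 CPM was 0.0758 for Itgb1, 0.283 for Itga10 and 0.366 for Itga11, so the likeness is a description over 6 values of genes from the same libraries.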

How the data were processed

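The deposited table holds read counts per Ensembl gene, not normalized, made by the authors with HISAT2 2.2.1, featureCounts 2.0.1 and the build GRCm38, per the submitters' processing notes. No source used here gives their settings, the strand setting or the treatment of shared reads. Per the labels' protocols the libraries were full-length cDNA from very low RNA input. Symbols were found for 55141 of 55401 identifiers. Positions and lengths come from the GENCODE M21 annotation (GRCm38), joined on the identifier without its version. A second deposited table of normalized values was not used here.

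Counts were filtered with filterByExpr (16260 genes left), normalised by TMM and tested by glmQLFit and glmQLFTest of edgeR 4.0.16, run in R 4.3.3 (group as the only term, all 6 libraries), with Benjamini-Hochberg adjustment over all genes and a threshold of 0.05. The SE is the log2 fold change divided by the square root of F, and 95% intervals use a t quantile with 4 degrees of freedom. The edgeR test also draws on the variance of other genes and so has more degrees of freedom. The intervals are therefore wider than the p-values printed beside them imply. Shares and ratios were compared by exact permutation tests, which cannot go below 0.1. Alternatives were DESeq2 1.42.0, limma-voom (limma 3.58.1), RLE factors, library sizes alone, upper-quartile factors, no filter, at least 1 CPM in 3 libraries, the replicate number as a block, each library left out, other lengths and, added after the data were seen, WT 2 and cKO 3 left out together (which had the highest muscle and adipocyte or neutrophil marker sums) and exon bases shared with other genes removed from lengths. The scripts were tested on simulated counts. Libraries of a group differed by more than sampling noise (chi-square per degree of freedom 31.4 to 36.5), so none was counted as a duplicate.

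The members, lists and tests were chosen with earlier results of these data known. Named genes are the members, Scin, for each pathway list those that passed (the 2 of smallest p where none did) and the 2 with the highest level per length, and the 3 genes most like Itga10, Itga11 and Itgb1.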

Additional observations from a re-analysis of the deposited data

How the results depend on the processing

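With 3 libraries per group and 22664828 to 31014996 reads per library, the 95% intervals of the report give the precision of each subunit's difference. They are wider than the edgeR p-values imply, and no detection limit was computed. No integrin subunit passed the threshold under any of the 15 alternatives, and their median log2 fold change stayed below 0, from -0.18 to -0.09 with single libraries left out. The unadjusted edgeR p of Itga11 was 0.0260 with no filter, 0.0453 with library sizes alone and 0.0496 with at least 1 CPM in 3 libraries. It was not under 0.05 with RLE factors, upper-quartile factors or the replicate block. The number of genes past the threshold over the whole table was 1, and it was 91 with DESeq2, 3 with no filter, 1 to 2 with single libraries left out and 0 with WT 2 and cKO 3 left out together, where Scin had an edgeR adjusted p of 0.0536. The cause was not tested, beyond the smaller number of libraries in the last. The Itga10 share differed by 0.851 to 8.49 percentage points and the Itga11 share by -10.7 to -2.94 with single libraries left out. Same-numbered libraries showed little common deviation (correlations of -0.0193, 0.0712 and 0.0235). For libraries of different number in the other group the correlations ran from -0.068 to 0.0503. A pairing by number was thus not seen, but these values cannot exclude a weak one. With the replicate number as a block 1 gene and 0 integrin subunits passed, the median log2 fold change of the subunits was -0.11, and Itgb8 stood at -0.03.

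The direction turned for Itga10, from 0.00 to -0.00645 with DESeq2, -0.00837 with limma-voom, -0.00532 with RLE factors, -0.00278 with library sizes alone, -0.00592 with no filter, -0.00206 with at least 1 CPM in 3 libraries and -0.22 without WT 2 and cKO 3, and leaving out 1 library at a time gave -0.16 to 0.22. Itgb8 turned to 1.12 with limma-voom. Other named genes near 0 turned as well. Without WT 2 and cKO 3, Actn4 stood at 0.029, Tgfb3 at 0.054, Phf2 at -0.15, Mdn1 at -0.045 and Kdm5d at -0.23. With single libraries left out the range was -0.31 to 0.096 for Itgb2, -0.065 to 0.078 for Cd9, -0.11 to 0.27 for Phf2, -0.00176 to 0.34 for Mdn1, -0.098 to 0.32 for Kdm5d, -0.085 to 0.031 for Ltbp3, -0.099 to 0.029 for Lgals3, -0.055 to 0.012 for Actn4 and -0.20 to 0.045 for Tgfb3. The cause was not tested.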
